A study of Mus musculus with 6 samples.

Results

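CC chemokines are small secreted proteins, named for a pair of adjacent cysteines near the amino terminus, that bind G protein-coupled receptors and direct the movement of leukocytes. Macrophages are a main source of them, and many of their genes are known targets of NF-kB and interferon regulatory factors downstream of Toll-like receptors. Most of the mouse genes stand in clusters on chromosome 11, and a smaller cluster stands on chromosome 8. Described here are 10 of them, Ccl2, Ccl3, Ccl4, Ccl5, Ccl6, Ccl7, Ccl9, Ccl17, Ccl22 and Ccl24, taken by gene symbol. All 10 were found among the 22105 rows of the deposited table that carry a gene identifier, and 7 of them passed the expression filter, set at 1 FPKM for the average of the 6 libraries (FPKM being fragments per unit of transcript length and of library size).

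Bulk RNA was taken from RAW264.7, a macrophage line of the mouse. For 3 libraries the cells received nanoparticles named CM-PEG-PLGA@DOX/R848, dosed to carry 2 µg/mL DOX, and for 3 libraries they received phosphate-buffered saline (PBS), all for 24 h. DOX is doxorubicin, a drug that damages DNA, and R848 (resiquimod) activates Toll-like receptors, while PLGA and PEG are polymers and CM is left unexplained in the labels. The comparison asks how transcripts differed after the loaded particles, and the drug, the agonist and the particle itself cannot be told apart, as they were always given together. Whether replicates were separate cultures is not in the labels, so every p-value refers to the spread among these samples, which may be technical.

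Nanoparticle libraries listed 15723 to 15989 genes above 0, and PBS libraries listed 12678 to 12872. Of 12 macrophage markers, 11 were tested, and Mertk stayed under the filter. Their summed level was 1960 to 2115 FPKM in nanoparticle libraries and 3990 to 4180 FPKM in PBS libraries. Of the 11, 3 were called higher and 7 lower, beside 42.7% and 34.5% of all genes tested. Of 30 markers of other cell types, Lck, a T cell kinase gene, alone passed the filter, with means of 9.53 FPKM in nanoparticle libraries and 2.55 FPKM in PBS libraries. The summed level of those 30 was 11.3 to 14.3 FPKM in nanoparticle libraries and 3.00 to 3.78 FPKM in PBS libraries, and Cd3g, Cd8a, Tpsb2 and Krt18 were listed at 0 in every library. The part of these shifts in the chemokine results was not tested.

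Of the 7 tested CC chemokine genes, 6 were higher and 1, Ccl6, was lower in nanoparticle libraries (limma, Benjamini-Hochberg adjusted p under 0.05). Ccl6 passed the filter only through the PBS group, its groups overlapped, and its call was lost in alternatives given below. Over all 10229 genes tested, 42.7% were called higher and 34.5% lower, 77.2% in either direction. Ccl22 and Ccl5 changed most, by 43.6-fold and 15.1-fold as ratios of mean FPKM, and Ccl2, Ccl3, Ccl4 and Ccl9 were 2.66-fold to 3.81-fold higher. The median log2 fold change of the 7 genes was 1.57, beside 0.08 over all genes tested. All 6 higher members passed 1 on the log2 scale, a size that 11.4% of all genes tested reached with a higher call. The members and the lists below were chosen with earlier results of these data known, so these comparisons are descriptions only. Ccl7, Ccl17 and Ccl24 were under the filter and have no test. Log2 fold changes refer to log2(FPKM + 1), so they come out smaller than the FPKM ratio for low genes. In bulk RNA, a rise in each cell and a larger share of cells making a transcript cannot be told apart.

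**Figure D1:**
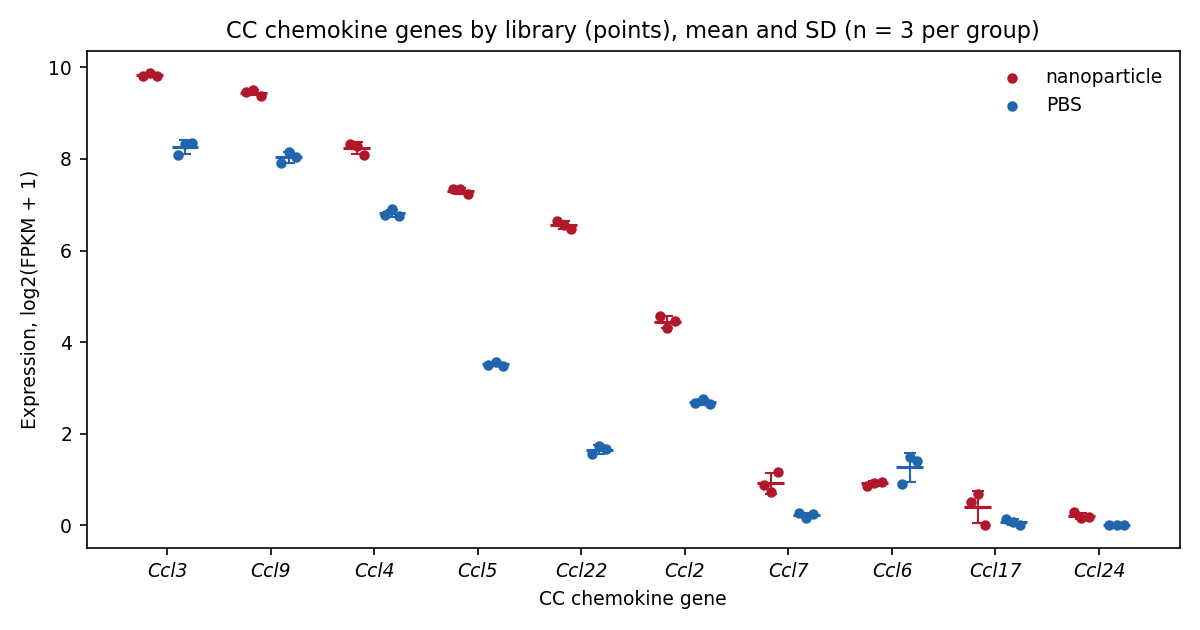
Level of each of the 10 CC chemokine genes as log2(FPKM + 1), with 1 point per library, the mean as a horizontal line and the SD as a bar (n = 3), nanoparticle libraries in red and PBS libraries in blue. Ccl3 and Ccl9 lead in both groups, Ccl22 and Ccl5 show the widest gaps between groups, and Ccl6, Ccl7, Ccl17 and Ccl24 lie near 0.

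Promoter sequence was at hand for 5 of the 10 genes, Ccl3, Ccl6, Ccl9, Ccl17 and Ccl22. They are shown because they hold 2 pairs of genes from the same cluster that lie far apart in level, Ccl22 with Ccl17 and Ccl9 with Ccl6, and the most abundant member, Ccl3. The sequences are from RefSeq (GRCm38.p6), are written 5′ to 3′ on the strand of the gene, and end at the base before the transcript. Capitals mark matches, on either strand, to any of 5 short patterns. These were an NF-kB-like pattern (GGG, then 5 unspecified bases, then CC), an AP-1-like pattern (TGANTCA), a STAT-like pattern (TTC, then 4 unspecified bases, then GAA), an interferon regulatory factor-like pattern (GAAA, then 2 unspecified bases, then GAAA) and a TATA box (TATAAA).
Ccl22, chr8:94745434-94745589, plus strand: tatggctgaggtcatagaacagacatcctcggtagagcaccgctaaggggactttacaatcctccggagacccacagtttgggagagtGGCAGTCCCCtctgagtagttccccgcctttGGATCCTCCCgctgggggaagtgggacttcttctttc
Ccl17, chr8:94810203-94810452, plus strand: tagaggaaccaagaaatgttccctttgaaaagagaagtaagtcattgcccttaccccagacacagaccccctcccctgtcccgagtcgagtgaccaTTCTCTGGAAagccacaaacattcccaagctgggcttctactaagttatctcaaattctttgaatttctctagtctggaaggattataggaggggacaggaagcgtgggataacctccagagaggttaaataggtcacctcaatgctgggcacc
Ccl9, chr11:83578637-83578886, minus strand: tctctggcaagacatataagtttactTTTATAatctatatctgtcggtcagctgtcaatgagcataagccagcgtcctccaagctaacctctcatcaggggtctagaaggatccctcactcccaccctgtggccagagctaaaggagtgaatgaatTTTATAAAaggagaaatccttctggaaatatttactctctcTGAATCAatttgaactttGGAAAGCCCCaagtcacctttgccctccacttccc
Ccl6, chr11:83593088-83593337, minus strand: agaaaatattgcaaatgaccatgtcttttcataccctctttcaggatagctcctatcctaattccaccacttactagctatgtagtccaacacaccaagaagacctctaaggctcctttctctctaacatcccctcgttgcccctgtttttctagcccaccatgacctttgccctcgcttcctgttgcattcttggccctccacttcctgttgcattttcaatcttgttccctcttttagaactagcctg
Ccl3, chr11:83649379-83649628, minus strand: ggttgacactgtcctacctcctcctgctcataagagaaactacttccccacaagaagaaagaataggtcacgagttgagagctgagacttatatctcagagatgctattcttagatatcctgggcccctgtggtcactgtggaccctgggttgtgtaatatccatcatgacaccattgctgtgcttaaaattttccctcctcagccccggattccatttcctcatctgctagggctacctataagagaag

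The Ccl22 stretch is 156 bases long, because GENCODE places its transcript start ahead of the RefSeq start, and the other stretches are 250 bases long. Ccl22 held the NF-kB-like pattern at 2 places, 162 and 131 bases before the RefSeq start. Ccl9 held the NF-kB-like pattern 35 bases and the AP-1-like pattern 53 bases before its start, and 3 matches to the TATA box, of which 2 overlap. Ccl17 held the STAT-like pattern, and no pattern was found in the stretches of Ccl6 and Ccl3. The NF-kB-like pattern is loose. It occurs in 45.8% of all 32851 RefSeq promoters over 250 bases, and in 28.8% over the 156 bases that match the Ccl22 stretch. The other patterns occur in 6.75% (AP-1-like), 5.85% (STAT-like), 2.98% (interferon regulatory factor-like) and 12.4% (TATA box) of promoters over 250 bases. Matches of letters describe these stretches only.

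Ccl2 and Ccl7 encode ligands of the receptor CCR2, which draws monocytes out of the blood. Ccl2 (ENSMUSG00000035385, chromosome 11, 82035571 to 82037453, GRCm38) had 22.6, 18.7 and 21.2 FPKM in nanoparticle libraries, against 5.38, 5.77 and 5.26 FPKM in PBS libraries. Every nanoparticle library lay above every PBS library, as was the case, as higher groups that do not overlap, for 43.7% of all genes tested. The log2 fold change of Ccl2 was 1.75 ± 0.08 (SE, limma adjusted p = 3.7e-08). With a pseudocount of 10 this change was 0.99, the lowest of the alternatives. An opposite-strand gene model, Gm17268, covers the whole span of Ccl2, and its own level is not analysed here.

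Ccl7 (ENSMUSG00000035373, chromosome 11, 82045712 to 82047525) lies next to Ccl2 and was far lower. It had 0.833, 0.644 and 1.24 FPKM in nanoparticle libraries, against 0.198, 0.123 and 0.185 FPKM in PBS libraries. These groups did not overlap, and the mean was 5.36-fold higher in nanoparticle libraries, at a level too low for the filter. The share of 43.7% given for Ccl2 is over tested genes only. More genes were listed above 0 in nanoparticle libraries in general, and the part of that in the Ccl7 values was not tested. The coding sequences of Ccl2 and Ccl7 are identical at 68.0% of aligned bases. The log2 ratio of Ccl2 over Ccl7, from FPKM + 1, was 3.53 ± 0.19 in nanoparticle libraries and 2.47 ± 0.11 in PBS libraries (SD, n = 3, exact two-sided permutation p = 0.10, the smallest that 3 against 3 allows). That difference of 1.06 depended on the pseudocount, and with 0.1 it was 0.04 (exact permutation p = 1.00).

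Ccl3, Ccl4 and Ccl5, known as MIP-1 alpha, MIP-1 beta and RANTES, attract T cells, macrophages and other leukocytes. Ccl3 (ENSMUSG00000000982, chromosome 11, 83647844 to 83649355) was the most abundant member in every library. It had 892, 935 and 900 FPKM in nanoparticle libraries, against 270, 320 and 326 FPKM in PBS libraries. Its groups did not overlap, and its log2 fold change was 1.57 ± 0.08 (SE, limma adjusted p = 5.0e-08).

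Ccl4 (ENSMUSG00000018930, chromosome 11, 83662584 to 83664683) starts in the other direction beside Ccl3. It had 322, 312 and 270 FPKM in nanoparticle libraries, against 109, 119 and 107 FPKM in PBS libraries. The lowest nanoparticle library was still above the highest PBS library, and limma gave 1.42 ± 0.07 as the log2 fold change (SE, adjusted p = 9.1e-08). The log2 ratio of Ccl3 over Ccl4 was 1.59 ± 0.13 in nanoparticle libraries and 1.44 ± 0.15 in PBS libraries (SD, n = 3). The ranges of the groups overlapped, and that difference of 0.16 had an exact two-sided permutation p of 0.30. Between libraries of equal replicate number the ratio differed by 0.17, 0.16 and 0.14, higher in the nanoparticle library of each of the 3 pairs, and the exact sign-flip permutation p was 0.25, the smallest that 3 pairs allow.

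Ccl5 (ENSMUSG00000035042, chromosome 11, 83525778 to 83530518) had 161, 162 and 149 FPKM in nanoparticle libraries, against 10.3, 10.9 and 10.2 FPKM in PBS libraries. The libraries of each group lay close together and the groups were far apart. Its log2 fold change was 3.79 ± 0.06 (SE, limma adjusted p = 4.3e-11), which ranked at place 47 from the top among the 10229 genes tested. The 95% interval of Ccl5, 3.66 to 3.92, lay above that of every other tested member except Ccl22.

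Ccl6 and Ccl9 are rodent chemokines that bind CCR1, a receptor of monocytes and neutrophils. Ccl9 (ENSMUSG00000019122, chromosome 11, 83572919 to 83578636) had 701, 724 and 667 FPKM in nanoparticle libraries, against 241, 282 and 263 FPKM in PBS libraries. It was the second most abundant member, its groups did not overlap, and its log2 fold change was 1.41 ± 0.07 (SE, limma adjusted p = 5.3e-08). The promoter of Ccl9 printed above carries matches close to its start.

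Ccl6 (ENSMUSG00000018927, chromosome 11, 83587882 to 83593087), the next gene to Ccl9, was barely expressed. It had 0.806, 0.907 and 0.935 FPKM in nanoparticle libraries, against 0.879, 1.80 and 1.65 FPKM in PBS libraries. PBS replicate 1 lay inside the nanoparticle range, so the groups overlapped. The gene passed the filter only through the PBS group, so it had to differ to be tested. The log2 fold change was -0.35 ± 0.14 (SE, limma adjusted p = 0.043). This call was lost without nanoparticle replicate 1, 2 or 3 (limma adjusted p = 0.10, 0.072 and 0.053) and without PBS replicate 2 or 3 (limma adjusted p = 0.16 and 0.12). It was also lost with a pseudocount of 0.1 and with no filter (limma adjusted p = 0.0503 and 0.093). Over all alternatives in which it was tested, its adjusted p was 0.0012 to 0.16, and its log2 fold change was negative in each. An opposite-strand gene model, E230016K23Rik, covers the whole span of Ccl6 and is not analysed here.

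The coding sequences of Ccl6 and Ccl9 are the most alike among the 10 genes, at 70.7% of aligned bases, so none of the members are near-identical copies of each other. The log2 ratio of Ccl6 over Ccl9 was -8.53 ± 0.09 in nanoparticle libraries and -6.77 ± 0.21 in PBS libraries (SD, n = 3). The difference of -1.77 had an exact two-sided permutation p of 0.10, the smallest possible.

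Ccl17 and Ccl22 encode the ligands of CCR4, found on regulatory and type 2 helper T cells. Ccl22 (ENSMUSG00000031779, chromosome 8, 94745590 to 94751699) had 98.8, 93.3 and 88.2 FPKM in nanoparticle libraries, against 1.93, 2.32 and 2.18 FPKM in PBS libraries. All nanoparticle values were far above all PBS values. At 4.91 ± 0.07 (SE, limma adjusted p = 3.7e-11), its log2 fold change was the largest of the members and ranked at place 14 among all genes tested. The size depended on the pseudocount, with 3.09 at a pseudocount of 10 and 5.39 at 0.1. It stayed the largest member change in both, but at a pseudocount of 10 Ccl5 came close, with 3.03.

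Ccl17 (ENSMUSG00000031780, chromosome 8, 94810453 to 94812036) did not share that level. It had 0.414, 0.597 and 0 FPKM in nanoparticle libraries, against 0.0974, 0.0538 and 0 FPKM in PBS libraries. One library of each group listed it at 0, the groups overlapped, and it was not tested. The log2 ratio of Ccl17 over Ccl22 was -6.17 ± 0.30 in nanoparticle libraries and -1.58 ± 0.14 in PBS libraries (SD, n = 3). The difference of -4.59 had an exact two-sided permutation p of 0.10, the smallest possible, and every nanoparticle ratio lay below every PBS ratio. Since Ccl17 is near 0, the size depends on the pseudocount, with -3.05 at 10 and -4.20 at 0.1. Over the 4 neighbour pairs compared, the Benjamini-Hochberg adjusted exact permutation p was 0.13 for Ccl17 with Ccl22, Ccl2 with Ccl7 and Ccl6 with Ccl9, and 0.30 for Ccl3 with Ccl4.

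Ccl24 (ENSMUSG00000004814, chromosome 5, 135569937 to 135573049) encodes eotaxin-2, a ligand of CCR3 on eosinophils. It had 0.217, 0.120 and 0.130 FPKM in nanoparticle libraries and was listed at 0 in all PBS libraries. With PBS libraries at 0, its fold change has no defined value. Nanoparticle libraries listed more genes above 0 in general, as given above, and the part of that in these low values was not tested.

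**Figure D2:**
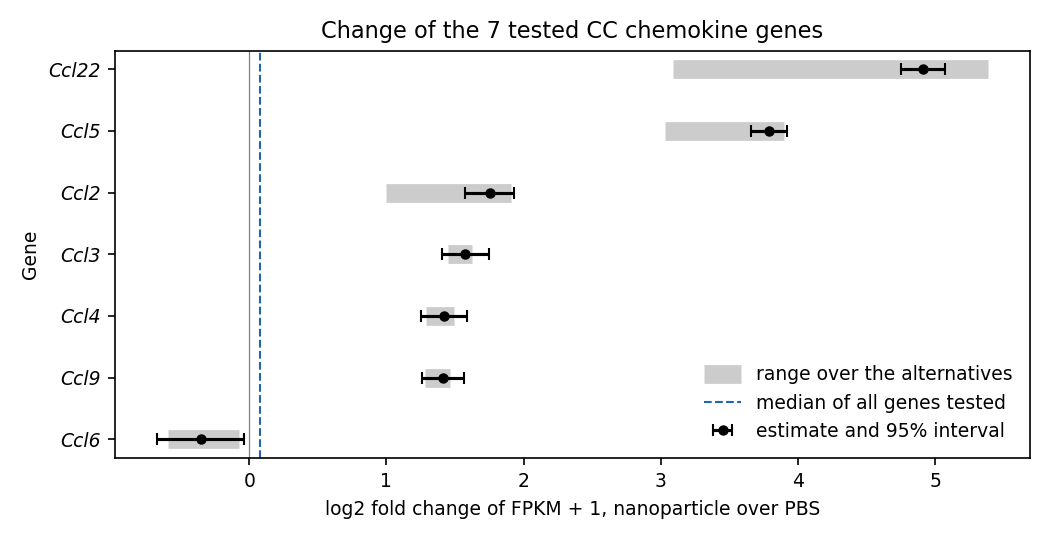
Log2 fold change of FPKM + 1, nanoparticle over PBS, for the 7 tested CC chemokine genes, with limma estimates and 95% intervals as black points and bars and the range over the processing alternatives as grey bars. The dashed line is the median of all genes tested (0.08), and Ccl6 is the only one of the 7 below it.

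The order of levels was nearly the same in both groups. In nanoparticle libraries it ran Ccl3, Ccl9, Ccl4, Ccl5, Ccl22, Ccl2, Ccl7, Ccl6, Ccl17 and Ccl24, by mean FPKM. Ranges of neighbours in that order overlapped for Ccl7 with Ccl6 and for Ccl17 with Ccl24. In PBS libraries it ran Ccl3, Ccl9, Ccl4, Ccl5, Ccl2, Ccl22, Ccl6, Ccl7, Ccl17 and Ccl24. There the ranges overlapped for Ccl3 with Ccl9 and for Ccl17 with Ccl24, although Ccl3 was above Ccl9 within each of the 3 libraries. Ccl22 stood above Ccl2 in nanoparticle libraries and below it in PBS libraries, and Ccl7 and Ccl6 also changed places.

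Summed over the 10 genes, the level was 2200, 2247 and 2097 FPKM in nanoparticle libraries, against 639, 742 and 716 FPKM in PBS libraries. That sum was 0.465% to 0.483% of all FPKM of a nanoparticle library and 0.139% to 0.158% of a PBS library. The groups did not overlap, and the log2 difference of 1.64 had an exact two-sided permutation p of 0.10, the smallest possible. Since the members were chosen with earlier results of these data known, this p is a description only. Within the sum, Ccl3 held 40.5% to 42.9% in nanoparticle libraries and 42.3% to 45.6% in PBS libraries. Ccl9 held 31.8% to 32.2% in nanoparticle libraries and 36.7% to 38.0% in PBS libraries, so these 2 genes made up most of the sum throughout. Ccl5 held 7.09% to 7.33% in nanoparticle libraries and 1.42% to 1.61% in PBS libraries. Ccl22 held 4.15% to 4.49% in nanoparticle libraries and 0.302% to 0.313% in PBS libraries.

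**Figure D3:**
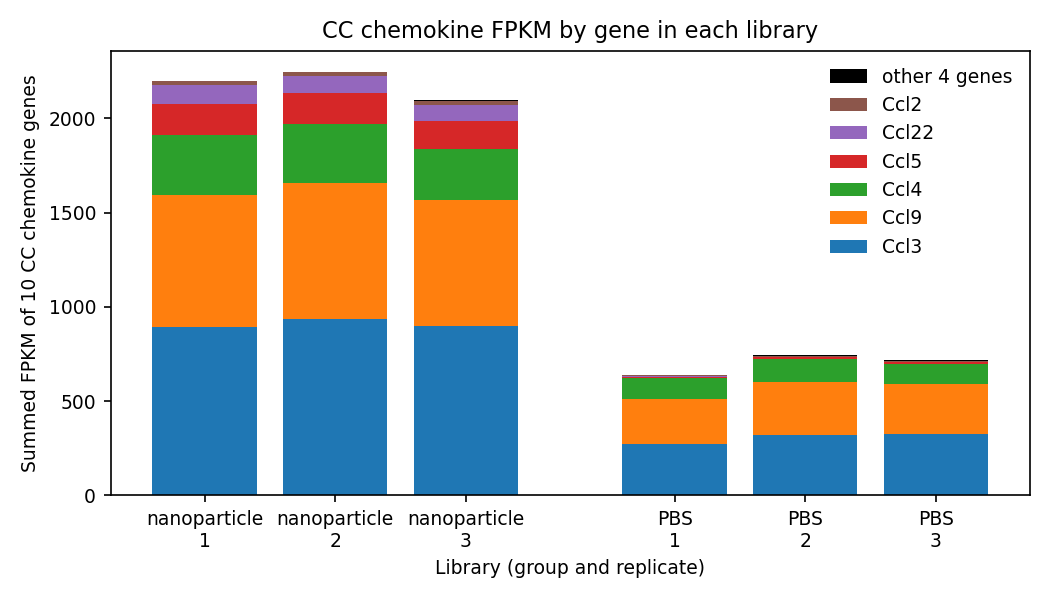
Summed FPKM of the 10 CC chemokine genes in each library, stacked by gene, with nanoparticle libraries left of PBS libraries. The bars reach 2097 to 2247 FPKM in nanoparticle libraries and 639 to 742 FPKM in PBS libraries, and the Ccl5 and Ccl22 segments are wider in nanoparticle libraries than in PBS libraries.

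The chromosome 11 genes fall into 2 clusters. The one from Ccl2 to Ccl1 spans 270 kb and lists 6 genes, all CC chemokines, of which Ccl2 alone passed the filter. Ccl8 and Ccl12, further genes of this cluster, had means of 0.157 and 0.25 FPKM in nanoparticle libraries. In PBS libraries Ccl8 was listed at 0 and Ccl12 averaged 0.0349 FPKM. Ccl11 and Ccl1 had means of 0.0141 and 0.102 FPKM in nanoparticle libraries, each from replicate 1 alone. Both were listed at 0 in PBS libraries, and their groups overlapped. The nearest listed genes outside this cluster, Asic2 and Tmem132e, averaged 0.0329 and 0.00895 FPKM in nanoparticle libraries. In PBS libraries they averaged 0.00494 and 0 FPKM, and their groups overlapped. The one from Ccl5 to Ccl4 spans 139 kb and lists 5 genes, all of them members and all tested. Ccl6 lies there between Ccl9 and Ccl3, which both rose, and its own lower call rests on overlapping groups and on the filter and libraries named above. The nearest listed gene beyond Ccl4, Wfdc17, an activated macrophage gene, had 110, 118 and 95.8 FPKM in nanoparticle libraries, against 3.78, 6.78 and 5.02 FPKM in PBS libraries (4.16 on the log2 scale, limma adjusted p = 8.1e-09). Heatr9, the nearest listed gene on the other side of Ccl5, was at or under 0.149 FPKM in every library.

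On chromosome 8, the 66.4 kb from Ccl22 to Ccl17 hold 1 further listed gene, Cx3cl1, which encodes the ligand of the fractalkine receptor. Cx3cl1 had 1.26, 0.962 and 1.10 FPKM in nanoparticle libraries, against 0.0696, 0.0295 and 0.0170 FPKM in PBS libraries, under the filter. Its groups did not overlap, and its level stayed far below that of Ccl22. As for Ccl7, the part of the larger number of genes listed above 0 in nanoparticle libraries was not tested. Ciapin1, the nearest listed gene beyond Ccl17, was 0.82 higher on the log2 scale (limma adjusted p = 9.4e-05). Pllp, the nearest listed gene beyond Ccl22, was under the filter. It averaged 0.205 FPKM in nanoparticle libraries and 0.0208 FPKM in PBS libraries.

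The 3′ untranslated regions of the members also differed in length and in AU-rich letters, which in many cytokine transcripts are bound by decay factors such as Zfp36. In GENCODE M21, ATTTA occurred 5 times in 409 bases of Ccl3, 2 times in 302 bases of Ccl4 and 5 times in 2465 bases of Ccl9. It occurred 2 times in 1813 bases of Ccl22 and not in the 199 bases of Ccl5 or the 183 bases of Ccl17. Ccl3 had 12.2 copies per kb, beside a median of 1.31 per kb over 19093 genes, and Ccl22 had 1.10. The longer form TTATTTATT was found in none of the 10 genes and in 7.46% of all genes. Of the others, Ccl2 had 3.64 copies per kb, Ccl6 4.24, Ccl7 4.6, and Ccl24 none in 858 bases. The relation of these letters to the changes was not tested.

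Among 14 listed CC chemokine genes outside the 10 that the table holds, Ccl25 alone was tested. Ccl25, a thymic and gut chemokine that binds CCR9, had 11.4, 10.4 and 10.5 FPKM in nanoparticle libraries, against 3.55, 3.80 and 3.68 FPKM in PBS libraries (log2 fold change 1.33 ± 0.07 SE, limma adjusted p = 1.1e-07). It overlaps Elavl1 on the other strand by 204 bases, and the sources used here do not state whether reads were counted by strand. Ccl19, Ccl21a, Ccl26 and Ccl27b were listed at 0 in all 6 libraries.

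Of 15 CC chemokine receptor genes, 2 were tested, Ccrl2 and Ccr10, and both were higher, beside 42.7% higher over all genes tested. Ccrl2, an atypical receptor that binds chemerin, had a mean of 17.5 ± 1.73 FPKM in nanoparticle libraries and 0.738 ± 0.0767 FPKM in PBS libraries (SD, n = 3, log2 fold change 3.41, limma adjusted p = 9.8e-10). It passed the filter only through the nanoparticle group. Ccr10, the receptor of Ccl27 and Ccl28, had 5.57 ± 0.681 FPKM in nanoparticle libraries and 1.52 ± 0.221 FPKM in PBS libraries (log2 fold change 1.38, limma adjusted p = 1.1e-06), and lies within the opposite-strand gene Cntnap1. Ccr1, Ccr2 and Ccr4, which encode receptors of members, were under the filter. In nanoparticle libraries Ccr1 averaged 1.22 FPKM, Ccr4 1.18 FPKM and Ccr2 0.60 FPKM. In PBS libraries Ccr1 averaged 0.765 FPKM, Ccr4 0.0678 FPKM and Ccr2 0.309 FPKM. These 3 were named after their values were seen, and the groups overlapped for Ccr2.

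Regulators of chemokine transcription and transcript decay were mostly higher, 20 of 27 tested, with 6 lower and a median log2 fold change of 1.01, beside 42.7% higher and 34.5% lower over all genes tested. Irf7, an interferon regulatory factor, had 1047 ± 63.4 FPKM in nanoparticle libraries and 52.5 ± 2.20 FPKM in PBS libraries (log2 fold change 4.29, limma adjusted p = 3.2e-11). Stat2 and the NF-kB subunit gene Relb also rose, with log2 fold changes of 2.89 and 2.62. In the list of receptor signalling genes, 7 of 27 tested were higher and 14 lower, with a median of -0.16. Elmo1, of the complex that activates Rac in moving cells, and the kinase gene Ptk2b fell by 1.96 and 1.49 on the log2 scale, while Rgs1, which restrains G protein signals, rose by 1.43.

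Of 13 tested genes for enzymes and carriers that act on secreted chemokines, 4 were higher and 6 lower (median log2 fold change -0.12). Over all genes tested, 42.7% were called higher and 34.5% lower, which stands beside this list and the other chemokines below. Srgn, which encodes serglycin, a proteoglycan that stores chemokines in granules, had 1093 ± 27.5 FPKM in nanoparticle libraries and 165 ± 9.16 FPKM in PBS libraries (log2 fold change 2.73, limma adjusted p = 2.8e-10). Sdc4, a cell surface proteoglycan gene, and Mmp9, a protease gene, rose with log2 fold changes of 1.62 and 2.06. Among CXC, XC and CX3C chemokines, 5 of 6 tested were higher and 1 lower (median 2.94), Cxcl14, named after its values were seen. Cxcl10, Cxcl2 and Cxcl11 had log2 fold changes of 4.92, 4.26 and 3.09, beside 4.91 for Ccl22. Mmp9, Cxcl3 and Cxcl11 passed the filter only through the nanoparticle group and Cxcl14 only through the PBS group, so these 4 had to differ to be tested, and the counts of their lists are descriptions only. Cxcl3 had means of 3.23 FPKM in nanoparticle libraries and 0.0326 FPKM in PBS libraries, and Cxcl14 had 0.557 FPKM in nanoparticle libraries and 2.28 FPKM in PBS libraries.

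**Figure D4:**
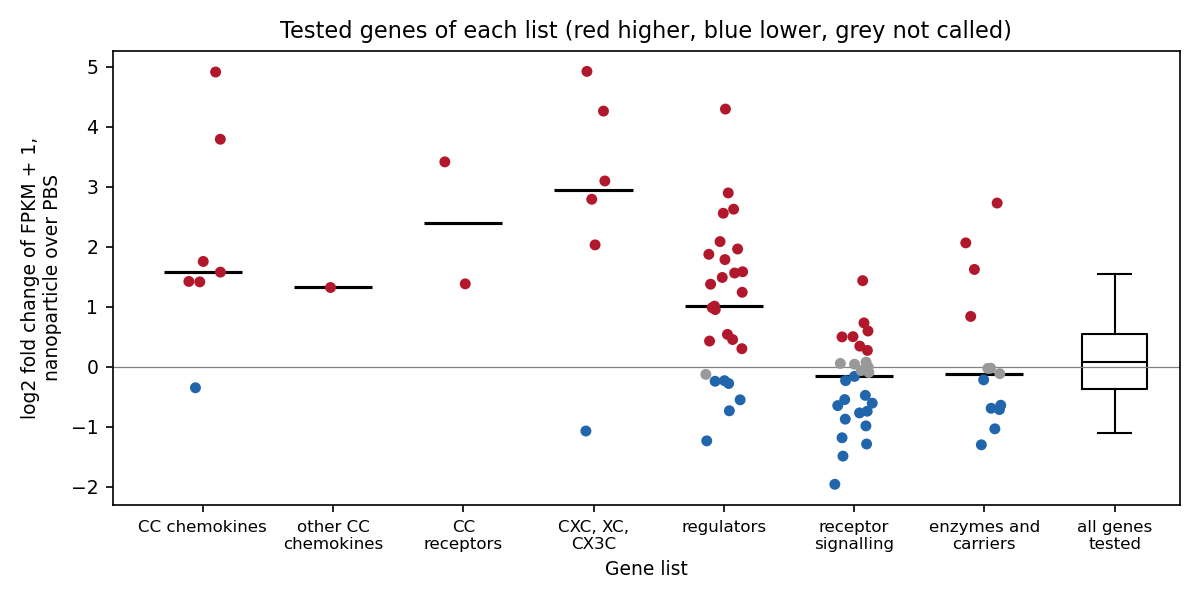
Log2 fold change of FPKM + 1, nanoparticle over PBS, of the tested genes of each list, with 1 point per gene and the list median as a line. At the right, the box spans the quartiles and the whiskers the 5th to 95th percentiles of all genes tested. The CC chemokine median is 1.57, and the receptor signalling median is -0.16.

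Genes with the profile nearest to Ccl22 were sought among 6306 tested genes that averaged 10 FPKM or more, by the root-mean-square difference of log2(FPKM + 1) less its PBS mean over the 6 libraries. They were Csf3 (0.04), Cxcl10 (0.09) and Tnfrsf9 (0.12). For Ccl6, which had the smallest log2 fold change of the 7 tested members, they were Mcee, Tfb1m and Naf1, with differences of 0.09, 0.10 and 0.10. Likeness over 2 groups of 3 libraries mostly weighs the size of the group difference, by the way it is built.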

How the data were processed

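RNA was sequenced from 6 bulk libraries of RAW264.7 cells, made by an mRNA protocol with enrichment, per the labels' protocols. The deposited table holds 1 column per library in FPKM, scaled by the authors. The header names no unit, and FPKM was inferred from values that are not whole and sums of 451056 to 469220 per library, so TPM with rows removed cannot be told apart. The submitters' processing notes name STAR and featureCounts, and the builds GRCm38 and mm10. Sequencing depth is unknown. Of low values in single-transcript genes, 27.7% to 42.7% came out as whole fragments within 0.05 at the best trial depth, so fragment numbers could not be rebuilt and no count model was used.

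Columns were matched by library name. The column of PBS replicate 1 adds an unexplained suffix. Of 22614 rows, 509 name no gene and hold 0.427% to 0.497% of FPKM. They were left out. Coordinates are from GENCODE M21 (GRCm38), which holds 21995 of the 22105 gene identifiers.

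Tests used limma 3.58.1 (R 4.3.3) with an intensity trend on log2(FPKM + 1), for genes averaging 1 FPKM or more. They were two-sided and Benjamini-Hochberg adjusted over 10229 genes. The code was run on simulated data with few changed genes and independent errors, unlike these data, in which 77.2% of genes were called. That run checks the code only and says nothing of the p-values here. Sums and ratios used exact permutation tests (scipy 1.17.1), and figures matplotlib 3.10.9. Genes named are all 10 members, other CC chemokine and receptor genes averaging 1 FPKM or more, the 3 smallest p-values of each other list, and the 3 genes most like Ccl22 and Ccl6. Others, such as Ccr1, Ccr2, Ccr4, Ccr9, Cxcl3, Cxcl14 and Mmp3, were named outside this rule, with their values known. Neighbours of the clusters are those between the outermost chemokine genes and 1 on each side. The members and lists were chosen with earlier results of these data known. Alternatives were pseudocounts, filters, scalings, no trend, a replicate block and leaving out each library. Deviations of same-numbered libraries of the 2 groups from their group means had a Pearson r across genes of 0.13, 0.11 and 0.35 for numbers 1 to 3, so the numbers were treated as pairs in the blocked alternative. The pairing is weak, since nanoparticle replicate 1 with PBS replicate 2 also gave 0.13, and the other unmatched pairs gave -0.26 to 0.01.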

Additional observations from a re-analysis of the deposited data

How the results depend on the processing

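Ccl2, Ccl3, Ccl4, Ccl5, Ccl9 and Ccl22 were called higher by limma in each of the 15 alternatives, and the count of members called higher was 6 to 8. The count of members called lower, 1 in the report, was 0 with a pseudocount of 0.1 and with no filter, and 0 to 1 when libraries were left out singly, since the Ccl6 call was lost as given there. It was also 0 with a filter at 10 FPKM, where Ccl6 was not tested. The replicate block, which treats equal replicate numbers as pairs, kept 6 members higher and 1 lower, with a limma adjusted p of 0.026 for Ccl6, and changed no member call. In exact sign-flip permutation tests of those pairs, the sum of the 10 genes had p = 0.25, the smallest that 3 pairs allow. That p is likewise a description only. The log2 difference of the sum was 1.52 to 1.69 over its alternatives.

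With no filter, limma called Ccl7 and Ccl24 higher (adjusted p = 0.0018 for each) and did not call Ccl17 (adjusted p = 0.14). Ccl24, listed at 0 in all PBS libraries, entered that fit only through the nanoparticle group. It had to differ to be tested, so its call is a description only. More genes were then tested, and 6244 of all 18008 were called higher. Of the lists, 3 of 10 other CC chemokines, 7 of 13 CC receptors and 8 of 21 enzyme and carrier genes were called higher. Some genes of these lists, such as Ccl8, Ccr9 and Mmp3, were also listed at 0 in all PBS libraries, so the counts are descriptions only. With the filter at 10 FPKM, 6307 genes were tested and 2653 were higher and 2346 lower, against 4366 and 3530 in the report. No other CC chemokine and no CC receptor gene was left to test (0 higher of each list), and other chemokines counted 3 higher and 0 lower. Median-ratio scaling moved the median log2 fold change of all genes by -0.11, and Ccl9, the lowest of the 6 members called higher, was then at 1.28. Of 10224 genes tested with that scaling, 3682 were higher and 4199 lower. Upper quartile scaling gave 3805 higher and 4084 lower of 10227. More genes were thus lower than higher in both, the reverse of the shares given in the report. Where values are under about 1 FPKM, as for Ccl6, Ccl7, Ccl17 and Ccl24, the unknown depth limits what can be said.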
